A study of Mus musculus with 36 samples.

Results

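The 10 genes followed here carry the insulin, growth hormone (GH) and insulin-like growth factor (IGF) signals in mouse liver: Insr, Irs1, Irs2, Ghr, Socs2, Igf1, Igfals, Igfbp1, Igfbp2 and Igfbp4. They were taken by gene symbol, from a list made with earlier results of these data known. Each occupied 1 of the 24066 rows with a symbol of its own in the expression tables. All 10 were among the 13215 genes that averaged at least 0.1 FPKM (fragments per kilobase of transcript, scaled to the mapped fragments of the library) and were tested. The livers came from wild-type male C57BL/6JRj mice aged 16 weeks, caged in groups of 5 under 12 h of light and 12 h of dark, with lights on at zeitgeber time 0 (ZT0). In the IH group, chronic intermittent hypoxia was given each day from ZT0 to ZT8 over 4 weeks as 60 cycles per h between 5% and 21% oxygen, and control mice received air–air cycles in its place. Livers were taken at ZT0, ZT4, ZT8, ZT12, ZT16 and ZT20 from 3 mice per time point and condition, giving 36 poly-A RNA libraries, 18 per condition. Food was freely available. The comparison asks whether hypoxia confined to the rest phase of the mouse alters the level or the daily timing of these transcripts.

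Insulin reaches hepatocytes through the portal vein, binds the insulin receptor and signals through the docking proteins IRS1 and IRS2 to restrain glucose output and promote lipid synthesis. GH acts on hepatocytes through its own receptor and JAK2 to activate STAT5, which switches on Igf1, the acid-labile subunit gene Igfals and the feedback inhibitor Socs2. Liver is the main source of circulating IGF1, which travels bound to binding proteins, and the binding-protein gene Igfbp1 and the docking-protein gene Irs2 are classically held down by insulin in the fed state and released during fasting.

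The promoter stretches below are shown because the genes they precede include the most variable member, Igfbp1, and 3 that were rhythmic in control, and because letters tied to insulin or clock factors occur in them. Each runs 5′ to 3′ in the direction of the gene over the 150 bases before the RefSeq start (build GRCm38.p6, a patch of the mm10 assembly). Igfbp1 is given from chr11:7197637-7197786 on the plus strand, Irs2 from chr8:11008930-11009079 and Irs1 from chr1:82291440-82291589 on the minus strand, and Igfbp2 from chr1:72824330-72824479 on the plus strand. Capitals mark exact matches on either strand to CAAAACAA, the insulin response element letters (TTGTTTTG when read on the other strand), and to CACGTG, the E-box bound by clock factors.
Igfbp1: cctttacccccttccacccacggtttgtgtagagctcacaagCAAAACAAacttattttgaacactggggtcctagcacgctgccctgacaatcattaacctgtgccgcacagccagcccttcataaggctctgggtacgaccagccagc
Irs2: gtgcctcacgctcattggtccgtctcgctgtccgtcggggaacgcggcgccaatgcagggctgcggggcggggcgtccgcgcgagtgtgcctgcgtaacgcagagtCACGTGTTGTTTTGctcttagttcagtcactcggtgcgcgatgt
Irs1: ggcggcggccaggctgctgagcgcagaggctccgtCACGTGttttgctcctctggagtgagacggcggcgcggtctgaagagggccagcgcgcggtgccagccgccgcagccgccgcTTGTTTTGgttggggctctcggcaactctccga
Igfbp2: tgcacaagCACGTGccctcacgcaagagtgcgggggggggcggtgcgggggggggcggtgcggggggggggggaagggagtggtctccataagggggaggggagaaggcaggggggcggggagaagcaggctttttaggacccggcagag
The insulin response letters began 108 bases before the start of Igfbp1, 38 bases before that of Irs2 and 33 bases before that of Irs1. In Irs2 they followed directly on a CACGTG that began 44 bases before the start, and the E-box letters began 115 bases before the start in Irs1 and 142 bases before it in Igfbp2. Each CACGTG also holds ACGTG, the core of the hypoxia response element, on both strands, so these matches are not separate.

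RefSeq windows of 250 bases before to 50 bases after a start were found for 8 of the 10 members, 12 windows in all. Insr and Socs2 were not matched. Over all 32851 windows in the table, 2.51% held CAAAACAA, 7.15% held CACGTG and 0.155% held both, as Irs1 and Irs2 do. The letters ACGTG occurred in 19.6% of all windows. The palindrome TTCNNNGAA, the form bound by STAT factors, occurred in 8.30% of windows and, among members, in Igfals alone, 236 bases before one of its 3 annotated starts and 58 bases before another. The forkhead letters TGTTTAC (3.65% of windows) also appeared in Igfals alone, 242 bases before a start. The cyclic AMP response letters TGACGTCA (1.79%) were in no member window, and their first 5 letters, TGACG (20.8%), were in Irs1, overlapping its E-box, and in Igfals. The Ghr, Igf1 and Igfbp4 windows held none of these letters. A match describes letters in a short window, not binding.

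In the annotation (GENCODE M21, GRCm38) all 10 members are protein-coding genes. Irs2 lies at chr8:10984681-11008458 and Insr at chr8:3122061-3279617, both on the minus strand. Igfbp1 (chr11:7197782-7202546) and Igfbp4 (chr11:99041244-99054392) share chromosome 11, and Igfbp2 (chr1:72824503-72852474) and Irs1 (chr1:82233101-82291416) share chromosome 1. Igf1 (chr10:87858265-87937042) and Socs2 (chr10:95385362-95417180) are on chromosome 10, Ghr (chr15:3317760-3583492) on chromosome 15 and Igfals (chr17:24865997-24882010) on chromosome 17.

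The libraries carried a liver profile. The summed level of 6 hepatocyte markers lay between 39290 and 65100 FPKM in control and between 40360 and 57090 FPKM in IH, whereas Ins1, Ins2 and Gcg, the pancreatic genes for insulin and glucagon, were listed at 0 in every library. Absolute depth is unknown, and the steps between low values placed the libraries within 0.836 to 1.41 times the depth of the first control ZT0 library. FPKM sums ran from 561964 to 626371, except in control ZT12 replicate 2 (808274). That library also had the highest summed Kupffer cell markers (5 genes, 19.0 to 161.8 FPKM in control and 17.1 to 45.5 in IH). Its leukocyte marker sum was the highest too (5 genes, 1.17 to 107.9 FPKM in control and 0.749 to 6.98 in IH). In that library the leukocyte sum was nearly all S100a8 (highest value 106.3 FPKM), as no other leukocyte marker passed 1.23 FPKM in any library. Saa1, the acute-phase serum amyloid A gene, exceeded 10000 FPKM in it (20546), in control ZT16 replicate 3 (12912) and in IH ZT0 replicate 2 (22865), and reached at most 2470 FPKM elsewhere. Results that rest on these libraries are given with and without them.

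Levels per transcript length placed Igfbp4 and Igfbp2 first and the docking proteins last. In control livers Igfbp4 had the highest level, 599.7 ± 157 FPKM (SD over 18 mice of all 6 time points), followed by Igfbp2 at 387.3 ± 120 FPKM and Ghr at 175.1 ± 19.5 FPKM. Igf1 (92.0 ± 10.9 FPKM), Igfbp1 (63.0 ± 77.7 FPKM) and Igfals (53.9 ± 12.3 FPKM) formed a middle tier in which Igfbp1 could not be separated from either neighbour. Socs2 (12.9 ± 9.60 FPKM) and Insr (8.03 ± 1.15 FPKM) came next with overlapping spreads, and so did the docking proteins Irs1 (1.90 ± 0.573 FPKM) and Irs2 (1.65 ± 1.06 FPKM). IH livers gave the same order apart from Igfals (53.4 ± 11.3 FPKM) and Igfbp1 (53.0 ± 62.8 FPKM), which differed by far less than their spread. Because these are whole-liver extracts, fewer cells of a type and less RNA per cell cannot be told apart in any of these values.

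**Figure D1:**
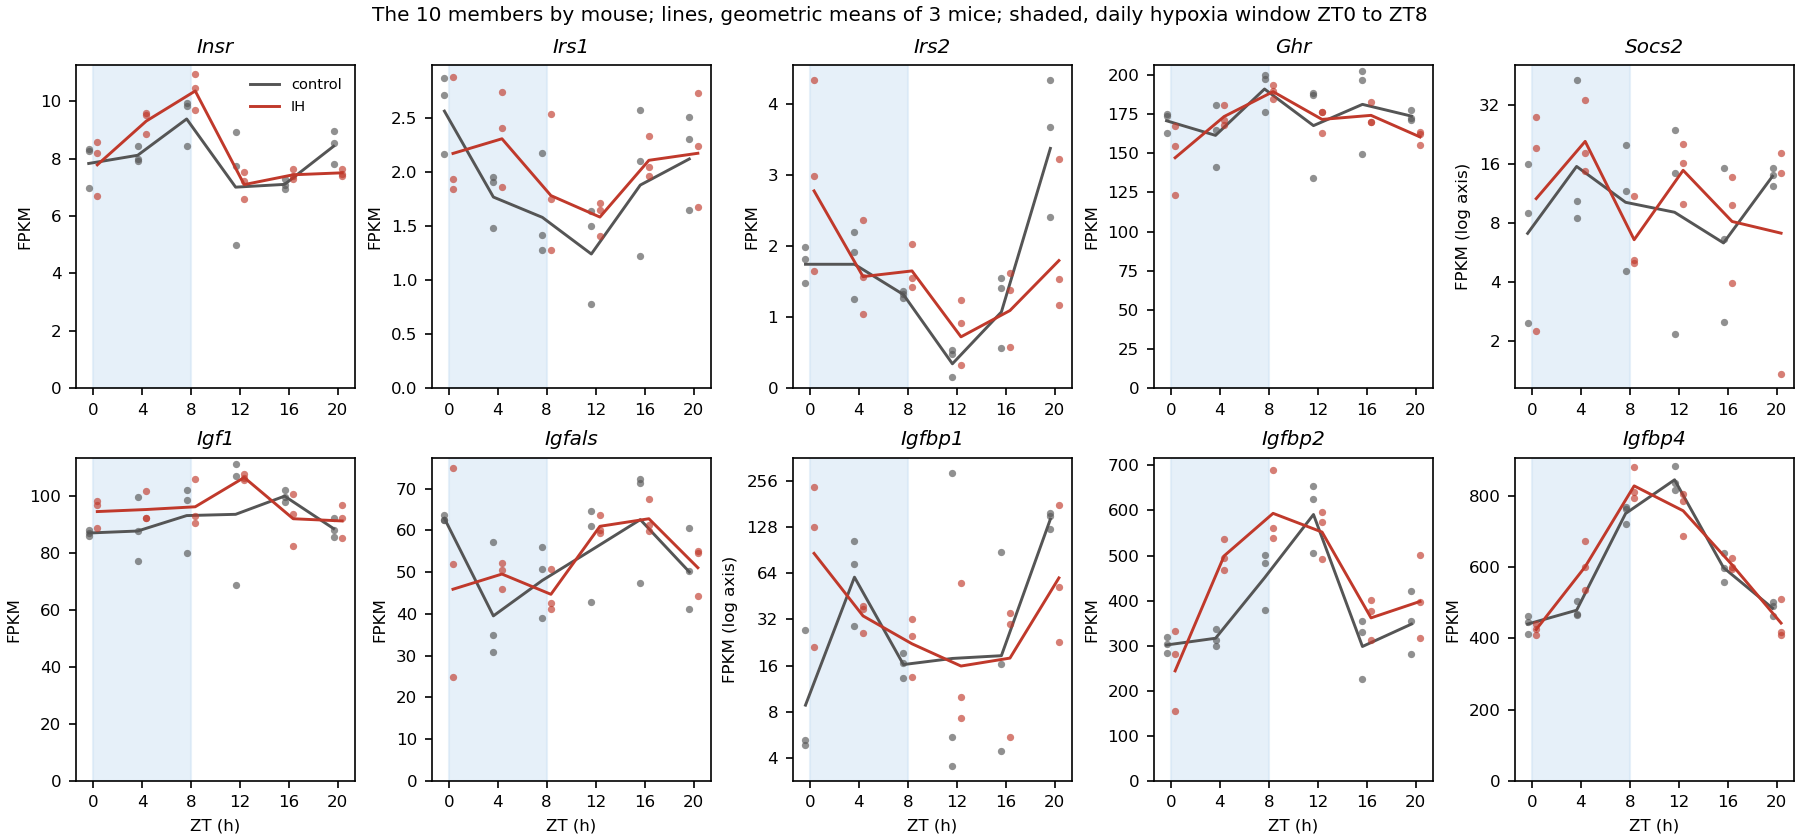
FPKM of the 10 members in each mouse against zeitgeber time, control in grey and IH in red, with lines through the geometric means of 3 mice, a log axis for Socs2 and Igfbp1 and linear axes from 0 for the others. Igfbp4 and Igfbp2 trace a single daily wave in both conditions, whereas Igfbp1 and Socs2 scatter between mice of the same group.

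Daily rhythm was tested within each condition by fitting a 24-h cosine to log2(FPKM + 1) over 18 libraries (limma, Benjamini-Hochberg adjustment over all genes, threshold 0.05). Rhythmic transcripts numbered 4 of the 10 members in control (Irs1, Irs2, Igfbp2 and Igfbp4), where 20.1% of all tested genes passed. Under IH the count was 6 (Insr, Irs2, Ghr, Igfbp1, Igfbp2 and Igfbp4), where 47.9% of all genes passed, so the count in IH stood near the background. The larger share in IH went with a smaller spread between mice, the median within-group SD over all genes being 0.11 in IH and 0.16 in control on the log2 scale. With 1 spread shared by both conditions, 4315 genes passed in control and 4746 in IH, and 4 members passed in each.

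A condition-by-time term tested whether the cosine itself differed between IH and control. No member and no other gene passed (0%), although 649 genes including 1 member had an unadjusted p under 0.05. That member was Igfbp4, whose adjusted p was 0.92. A member that passed in 1 condition and not in the other was therefore not shown to differ in rhythm between them.

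**Figure D2:**
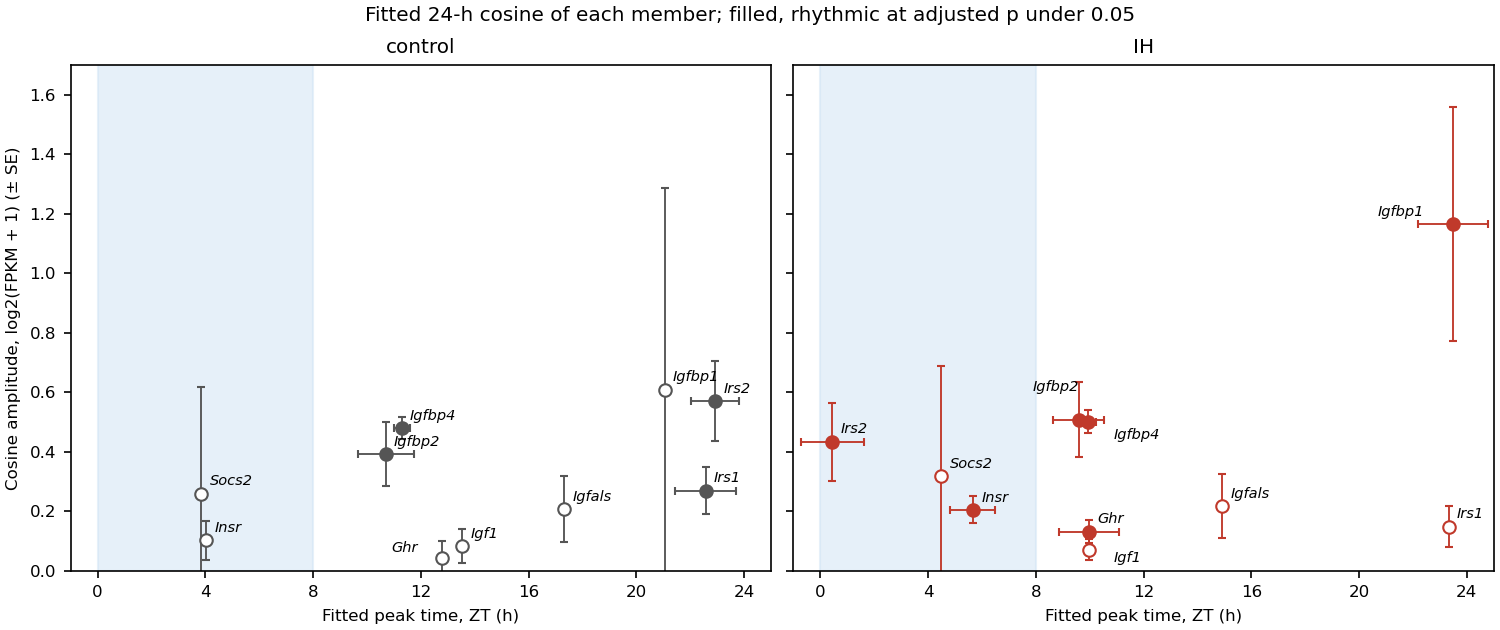
Fitted cosine of each member in control (left) and IH (right), with peak time in h on the x axis, shaded from ZT0 to ZT8, and amplitude on the log2(FPKM + 1) scale with its SE on the y axis. Filled points passed the rhythm test and carry the SE of their peak time, and Igfbp2 and Igfbp4 lie close together in both panels, at 10.7 and 11.3 h in control and at 9.59 and 9.95 h in IH.

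Among receptors and docking proteins, Irs2 had the widest daily swing. In control its 3 mice had 1.82, 1.48 and 1.99 FPKM at ZT0, 0.532, 0.159 and 0.484 FPKM at ZT12, and 2.42, 4.34 and 3.68 FPKM at ZT20. The ZT12 values, at the onset of darkness, did not overlap with those of ZT0 or ZT20. The cosine peaked at 22.9 ± 0.887 h (SE) with a peak-to-trough ratio of 2.21 on the FPKM + 1 scale, adjusted p = 0.0088.

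Under IH, Irs2 read 1.66, 4.34 and 3.00 FPKM at ZT0, 0.333, 0.923 and 1.24 FPKM at ZT12, and 1.53, 1.18 and 3.23 FPKM at ZT20. The lowest mean was again at ZT12, and the highest was at ZT0 in place of ZT20. The fitted peak lay at 0.450 ± 1.16 h with a ratio of 1.83, adjusted p = 0.022, and the test of a different cosine gave an adjusted p of 0.93. The rhythm in IH did not pass without IH ZT0 replicate 2, IH ZT0 replicate 3 or IH ZT12 replicate 1 (adjusted p of 0.058, 0.050 and 0.064), with array weights (0.088) or with an F test over the 6 time points (0.069). Without all 9 libraries above 500 FPKM of Saa1, a limit chosen after seeing the data, the adjusted p was 0.067 in control and 0.091 in IH.

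At ZT20 the mean Irs2 level in IH was 0.569 times the control mean, and the mice overlapped (2.42 to 4.34 FPKM in control, 1.18 to 3.23 FPKM in IH). The log2 difference was −0.63 ± 0.26 (SE), with an adjusted p of 1. At ZT8 all 3 IH mice (1.43, 1.55 and 2.03 FPKM) were above all 3 control mice (1.37, 1.32 and 1.27 FPKM), a difference of 0.20 ± 0.26 in log2(FPKM + 1) that did not pass (adjusted p = 1).

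Irs1, the other docking protein, followed a shallower course with its trough at the same hour. Control mice had 2.87, 2.17 and 2.71 FPKM at ZT0 and 1.50, 0.778 and 1.64 FPKM at ZT12, without overlap. Its cosine peaked at 22.6 ± 1.12 h with a ratio of 1.45 and only just passed (adjusted p = 0.044). The call was lost when any one of 12 of the 18 control libraries was left out (adjusted p up to 0.096). It was also lost without a filter on low values, with common-sum scaling and with the replicate number as a block. An F test over the 6 time points and JTK_Cycle, a rank-based test, lost it too (adjusted p between 0.057 and 0.14 over these settings). In IH the ratio was 1.23 with a peak at 23.3 ± 1.76 h (adjusted p = 0.16), and the mice at ZT12 had 1.41, 1.65 and 1.71 FPKM.

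Insr, which encodes the receptor for insulin, rose and fell within a narrow band in IH. Its levels were 9.58, 8.86 and 9.51 FPKM at ZT4 and 10.5, 11.0 and 9.72 FPKM at ZT8, against 7.23, 6.58 and 7.52 FPKM at ZT12. Every mouse taken at ZT4 or ZT8 was above every mouse taken at ZT12, and the cosine peaked at 5.66 ± 0.841 h with a ratio of 1.33 (adjusted p = 0.0042). The call held without each IH library in turn (adjusted p between 0.0013 and 0.011) and missed the threshold with JTK_Cycle (adjusted p = 0.060).

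Control Insr also had its highest mean at ZT8, with more scatter. Levels were 7.99, 7.94 and 8.45 FPKM at ZT4, 8.46, 9.94 and 9.84 FPKM at ZT8, and 8.94, 4.98 and 7.74 FPKM at ZT12. The value of 4.98 belonged to control ZT12 replicate 2 and was the lowest of all 36. The ratio in control was 1.15, with an adjusted p of 0.47. At ZT20 the IH mice (7.46, 7.66 and 7.41 FPKM) lay below the control mice (7.82, 8.56 and 8.97 FPKM), with a log2 difference of −0.15 ± 0.12 (adjusted p = 1).

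On the GH arm, Ghr, which encodes the GH receptor, had one of the narrowest ranges, from 123.2 to 202.2 FPKM over all 36 libraries, a 1.64-fold span. In IH its mice had 154.3, 123.2 and 167.5 FPKM at ZT0, 184.4, 189.8 and 193.8 FPKM at ZT8, and 155.5, 162.5 and 163.3 FPKM at ZT20. The ZT8 mice were above all of the ZT0 and ZT20 mice. The cosine in IH peaked at 9.98 ± 1.11 h with a ratio of 1.20 (adjusted p = 0.027), and in control the ratio was 1.06 (adjusted p = 0.85). The rhythm in control did not pass under 14 other settings, but its adjusted p there ranged widely, from 0.051 to 0.99. With 1 control library left out it lay between 0.25 and 0.92. With the shared spread the IH call was lost (adjusted p = 0.096), as it was without IH ZT8 replicate 2 (adjusted p = 0.057) or replicate 3 (adjusted p = 0.060) and with common-sum scaling (adjusted p = 0.071).

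At ZT20 all IH mice lay below the control mice for Ghr (171.3, 177.6 and 172.2 FPKM in control), with a log2 difference of −0.11 ± 0.12 and an adjusted p of 1. Over the whole day Ghr in IH differed from control by −0.04 ± 0.05 (adjusted p = 0.74). Without the 9 libraries above 500 FPKM of Saa1 that difference was −0.11 with an adjusted p of 0.042. The 3 libraries above 10000 FPKM of Saa1 each read low for Ghr, at 0.714, 0.751 and 0.765 times the mean of their group mates.

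Socs2, a feedback inhibitor that GH induces through STAT5, varied widely between mice of the same group. Control mice had 8.46, 42.8 and 10.3 FPKM at ZT4, 23.7, 2.19 and 14.4 FPKM at ZT12, and 6.65, 2.50 and 15.3 FPKM at ZT16. Under IH the values were 27.8, 2.24 and 19.3 FPKM at ZT0, 33.6, 18.2 and 14.7 FPKM at ZT4, and 14.4, 1.37 and 18.2 FPKM at ZT20. These are among the widest groups, and others were tighter, such as control ZT20 with 15.2, 12.4 and 14.1 FPKM. The group means ran from 7.06 FPKM (IH ZT8) to 22.2 FPKM (IH ZT4). No rhythm passed (adjusted p = 0.82 in control and 0.70 in IH), and the IH minus control difference over the day was 0.08 ± 0.33 in log2(FPKM + 1).

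The spread of Socs2 within groups, an SD of 1.10 in log2(FPKM + 1), ranked 58 of 13215 genes, and that of Igfbp1, 1.52, ranked 29. Irs2 (0.34), Igfals (0.33), Igfbp2 (0.27) and Irs1 (0.23) were also above the median gene (0.15), and Igfbp4 (0.10) was below it. Igf1 (0.15), Ghr (0.14) and Insr (0.14) were near the median.

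**Figure D3:**
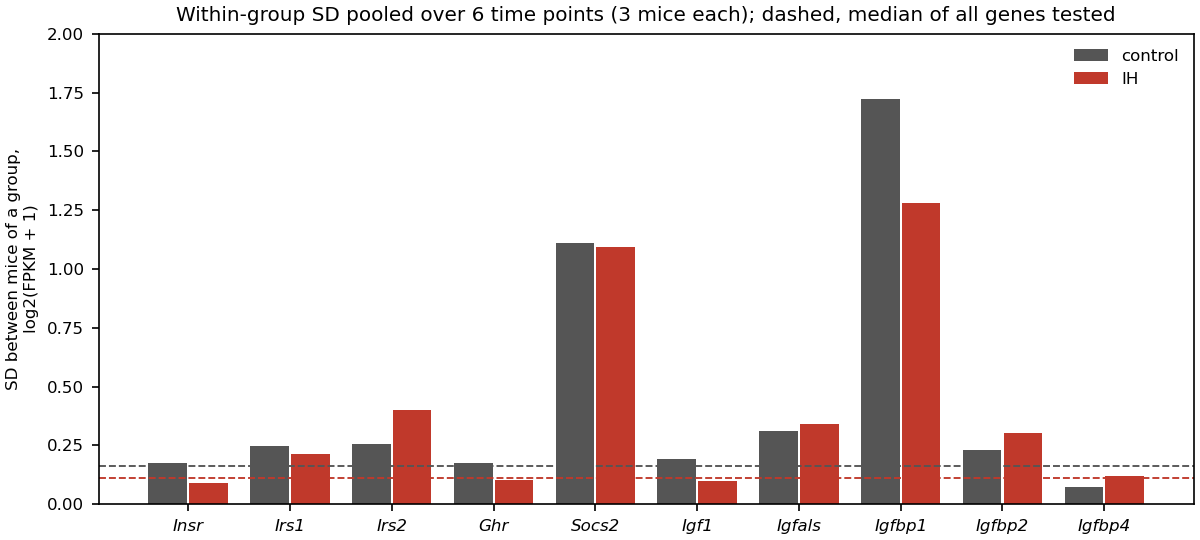
SD between mice of a group for each member in log2(FPKM + 1), pooled over the 6 time points with 3 mice each, control in grey and IH in red, with dashed lines at the median over all tested genes (0.16 in control and 0.11 in IH). Igfbp1 and Socs2 exceed 1 in both conditions, and Igfbp4 is at 0.07 in control and 0.12 in IH.

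Igf1 itself, the circulating growth factor made under GH control, held a nearly flat level. Control means ran from 86.9 ± 0.954 FPKM (SD, n = 3) at ZT0 to 99.8 ± 2.11 FPKM at ZT16, and IH means from 91.2 ± 5.82 FPKM at ZT20 to 106.4 ± 1.10 FPKM at ZT12. The peak-to-trough ratio was 1.12 in control (adjusted p = 0.53) and 1.10 in IH (adjusted p = 0.23). At ZT12 the control mice had 106.7, 68.8 and 111.1 FPKM, the low one being replicate 2. Without that library the control cosine passed (adjusted p = 0.033), as it did with array weights (adjusted p = 0.028).

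At ZT0 Igf1 in IH (98.0, 88.7 and 96.8 FPKM) was above control (86.0, 87.9 and 86.8 FPKM) in every mouse. It was the only member without overlap in this direction at that time, where 4.59% of all genes showed the same, and the log2 difference was 0.12 ± 0.12 (adjusted p = 0.89). Over the day the difference was 0.07 ± 0.05 (adjusted p = 0.64).

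Igfals encodes the acid-labile subunit that holds IGF1 in its long-lived circulating complex. Its control mice had 62.5, 62.5 and 63.7 FPKM at ZT0 and 35.0, 57.2 and 30.8 FPKM at ZT4, and its IH mice 74.9, 24.9 and 51.9 FPKM at ZT0 and 50.5, 52.3 and 46.1 FPKM at ZT4. The control mice were tight at ZT0 and scattered at ZT4, and the IH mice the reverse. The low value of 24.9 belonged to the IH library above 10000 FPKM of Saa1, and both low control values at ZT4 came from libraries with Saa1 at 2357 and 2435 FPKM. Other libraries with raised Saa1 were mixed. Control ZT20 replicate 1 (Saa1 at 2242 FPKM) was the lowest of its group for Igfals (41.2 FPKM). IH ZT12 replicate 2 (2470 FPKM) and control ZT0 replicate 3 (1235 FPKM) were the highest of theirs (63.6 and 63.7 FPKM). Control ZT8 replicate 1 (828 FPKM) lay between its group mates (50.8 FPKM). Neither rhythm passed (ratio 1.33, adjusted p = 0.32 in control, and ratio 1.35, adjusted p = 0.18 in IH), though that in IH did without IH ZT0 replicate 1 (adjusted p = 0.034). Over the day IH and control differed by −0.01 ± 0.10.

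Igfbp1, an acutely regulated binding protein that rises in fasting and stress, spanned 81.7-fold, from 3.55 to 289.8 FPKM, and both extremes came from the same group, control ZT12 (3.55, 289.8 and 5.52 FPKM). Control mice at ZT20 had 150.3, 159.0 and 124.6 FPKM and those at ZT0 had 4.86, 5.23 and 27.3 FPKM. In IH the ZT20 mice had 51.9, 23.0 and 178.3 FPKM and the ZT0 mice 21.3, 234.0 and 128.8 FPKM. All 3 control mice were thus higher at ZT20 than at ZT0, without overlap, while the IH mice of these times overlapped.

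At ZT0 the Igfbp1 difference between IH and control was 3.12 ± 1.16 on the log2 scale, an 8.69-fold ratio. It had an adjusted p of 0.47, and the mice overlapped. Without the 3 libraries above 10000 FPKM of Saa1 the difference was 2.41 (adjusted p = 0.53). At ZT20 the difference was −1.25 ± 1.16 (adjusted p = 1), and over the day it was 0.19 ± 0.50.

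The Igfbp1 cosine in IH peaked at 23.5 ± 1.29 h with a ratio of 5.04, the largest of any member in either condition, and passed (adjusted p = 0.038). It did not pass without IH ZT0 replicate 2 (adjusted p = 0.097) or without any one of 6 other IH libraries (adjusted p between 0.053 and 0.087), with an F test over the 6 time points or the shared spread (0.19 as adjusted p in each), with JTK_Cycle (adjusted p = 0.18) or without a filter on low values (adjusted p = 0.067). In control the ratio was 2.33, with an adjusted p of 0.73, and 0.28 without the 2 control libraries above 10000 FPKM of Saa1.

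Igfbp2, an abundant hepatic binding protein, was higher in IH within and at the end of the hypoxia window. Control mice had 313.4, 337.0 and 300.0 FPKM at ZT4 and 378.1, 500.2 and 483.2 FPKM at ZT8. IH mice had 537.8, 468.0 and 494.3 FPKM at ZT4 and 562.0, 539.4 and 690.1 FPKM at ZT8. No IH mouse overlapped with control at either time. In the test of ZT4 and ZT8 together (12 libraries) the log2 difference was 0.53 ± 0.09, a 1.44-fold ratio, with an adjusted p of 0.012.

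Igfbp4, the most abundant member and a binding protein that restrains IGF action locally, moved the same way with a smaller step. Control mice had 463.9, 467.4 and 505.6 FPKM at ZT4 and 762.4, 768.5 and 719.8 FPKM at ZT8. IH mice had 536.6, 599.4 and 674.0 FPKM at ZT4 and 794.6, 811.1 and 879.1 FPKM at ZT8. Again no IH mouse overlapped with control at these times, and the joint log2 difference was 0.24 ± 0.06, a 1.18-fold ratio, with an adjusted p of 0.043.

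These were 2 of the 10 members called at ZT4 and ZT8 together, where 7.98% of all genes passed, 6.05% as higher and 1.93% as lower in IH. Both differences stayed positive under each alternative tried. The Igfbp2 call held without any single library (log2 difference between 0.49 and 0.58, adjusted p between 0.011 and 0.036) and under other scalings, but a fit of all 36 libraries gave an adjusted p of 0.058. The Igfbp4 call was lost in 11 of 12 fits that left out 1 library (adjusted p up to 0.099) and under median-ratio scaling, where the log2 difference was 0.17 (adjusted p = 0.15), quantile normalization (0.15, adjusted p = 0.14) and common-sum scaling (0.21, adjusted p = 0.058), and without a filter on low values (adjusted p = 0.065).

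Saa1 moved with this contrast. At ZT4 and ZT8 the control libraries with Saa1 above 500 FPKM numbered 3 of 6 (2357 and 2435 FPKM at ZT4, 828 FPKM at ZT8), and the IH libraries 0 of 6 (21.9 to 72.1 FPKM). Without those 3 libraries the log2 difference was 0.39 for Igfbp2 (adjusted p = 0.14) and 0.23 for Igfbp4 (adjusted p = 0.23), and no gene of the 13215 passed. The control mice with low Saa1 had 337.0 FPKM (ZT4) and 500.2 and 483.2 FPKM (ZT8) for Igfbp2. For Igfbp4 they had 467.4, 768.5 and 719.8 FPKM. As no control mouse overlapped with IH at these times, these values were necessarily below those of all IH mice of their time point. All control mice were placed so for 26.7% of all genes at ZT4 and 11.0% at ZT8. What part Saa1-linked variation had in these differences was not tested.

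**Figure D4:**
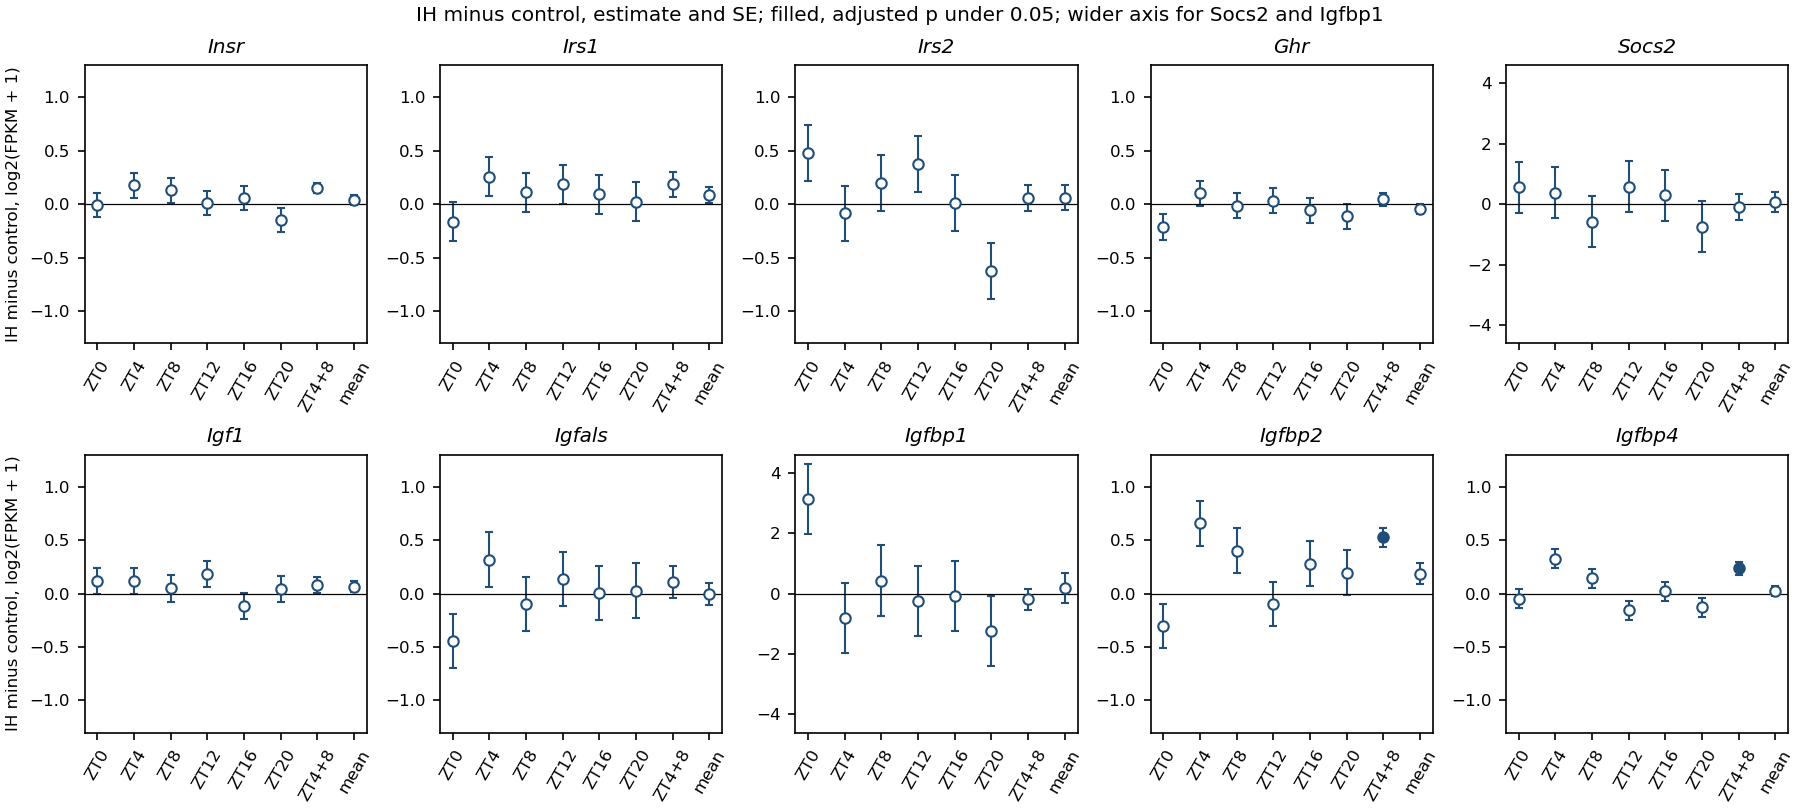
IH minus control for each member in log2(FPKM + 1), with its SE, at each time point, at ZT4 and ZT8 together (ZT4+8) and over the whole day (mean), with filled points past an adjusted p of 0.05 and a wider axis for Socs2 and Igfbp1. The only filled points are Igfbp2 (0.53) and Igfbp4 (0.24) at ZT4+8.

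Insr came next in that contrast, at 0.15 ± 0.05 (adjusted p = 0.073), and passed with array weights (adjusted p = 0.044). At ZT4 every IH mouse was above every control mouse for 3 members, Insr, Igfbp2 and Igfbp4, where 26.7% of all genes behaved so, and at ZT8 for Irs2, Igfbp2 and Igfbp4, where the share was 11.0%. The median log2 difference of the 10 members at ZT4 and ZT8 together was 0.10, against 0.04 over all tested genes.

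Time points taken singly, with 3 mice against 3, called no member. At ZT4, where 1.16% of all genes passed, Igfbp4 had a log2 difference of 0.33 ± 0.09 (adjusted p = 0.060) and Igfbp2 one of 0.66 ± 0.21 (adjusted p = 0.11). Both passed when the 3 libraries above 10000 FPKM of Saa1, none of them from ZT4, were left out of the fit (adjusted p = 0.018 and 0.010). That fit called 1344 of the 13215 genes at ZT4, against 153 with all libraries. With all libraries kept, the share of all genes called was 0% at ZT0, 0.00757% at ZT8, 0.772% at ZT12, 0.00757% at ZT16 and 0% at ZT20. Members with an unadjusted p under 0.05 numbered 1 at ZT0 (Igfbp1), 2 at ZT4 (Igfbp2 and Igfbp4), 1 at ZT20 (Irs2) and 0 at ZT8, ZT12 and ZT16. Of all 13215 genes, 1000 had such a p at ZT0, 2172 at ZT4, 627 at ZT8, 3249 at ZT12, 436 at ZT16 and 627 at ZT20.

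Over the whole day no member passed either, where 0.356% of all genes did. None had an unadjusted p under 0.05, where 1425 of all 13215 genes did. Igfbp2 came closest at 0.19 ± 0.10 (adjusted p = 0.49), and the median over members was 0.06, against 0.03 over all genes.

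Both binding proteins kept a strong daily wave in each condition. Igfbp4 in control rose from 445.8, 413.3 and 461.6 FPKM at ZT0 to 882.4, 835.4 and 817.1 FPKM at ZT12, and in IH from 424.9, 409.6 and 439.8 FPKM at ZT0 to 794.6, 811.1 and 879.1 FPKM at ZT8. The ratio was 1.95 in control (adjusted p = 6.3e-06) and 2.00 in IH (adjusted p = 5.4e-07), and both calls held in every alternative. The highest mean fell at ZT12 in control and at ZT8 in IH.

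At ZT12 the order of the groups was the opposite of that at ZT4 and ZT8, all IH mice (804.4, 688.2 and 785.6 FPKM) being below all control mice. The log2 difference was −0.16 ± 0.09 (adjusted p = 0.27), but 0.06 under quantile normalization, and Igfbp4 was the only member placed so at ZT12, as were 6.74% of all genes. The fitted peak lay at 11.3 ± 0.299 h in control and at 9.95 ± 0.296 h in IH. The test of a different cosine did not pass after adjustment, as given above.

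For Igfbp2 the control mice had 319.6, 283.3 and 302.7 FPKM at ZT0 and 653.9, 505.2 and 625.1 FPKM at ZT12, and the IH mice 280.9, 155.3 and 333.0 FPKM at ZT0 and 574.0, 596.7 and 491.4 FPKM at ZT12. ZT0 and ZT12 did not overlap in either condition. The cosine peaked at 10.7 ± 1.05 h in control (ratio 1.73, adjusted p = 0.028) and at 9.59 ± 0.947 h in IH (ratio 2.02, adjusted p = 0.0062). The control call was lost without control ZT8 replicate 2, ZT12 replicate 1 or ZT12 replicate 3 (adjusted p between 0.053 and 0.073), under common-sum scaling (adjusted p = 0.078) and under quantile normalization (adjusted p = 0.092).

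At ZT20 the members with all IH mice below control were Insr and Ghr, where 4.18% of all genes were placed so.

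In the 3 libraries above 10000 FPKM of Saa1, several members departed from their group mates. Igfbp1 was 63.9 times the mean of its group mates in control ZT12 replicate 2, 8.49 times in control ZT16 replicate 3 and 3.12 times in IH ZT0 replicate 2. Igfals was at 0.680, 0.658 and 0.393 times and Igfbp2 at 0.790, 0.656 and 0.506 times, in the same order. Igfbp4 stayed near its group mates at 0.983, 1.11 and 0.947 times, and Socs2 read 0.115, 3.34 and 0.0952 times.

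**Figure D5:**
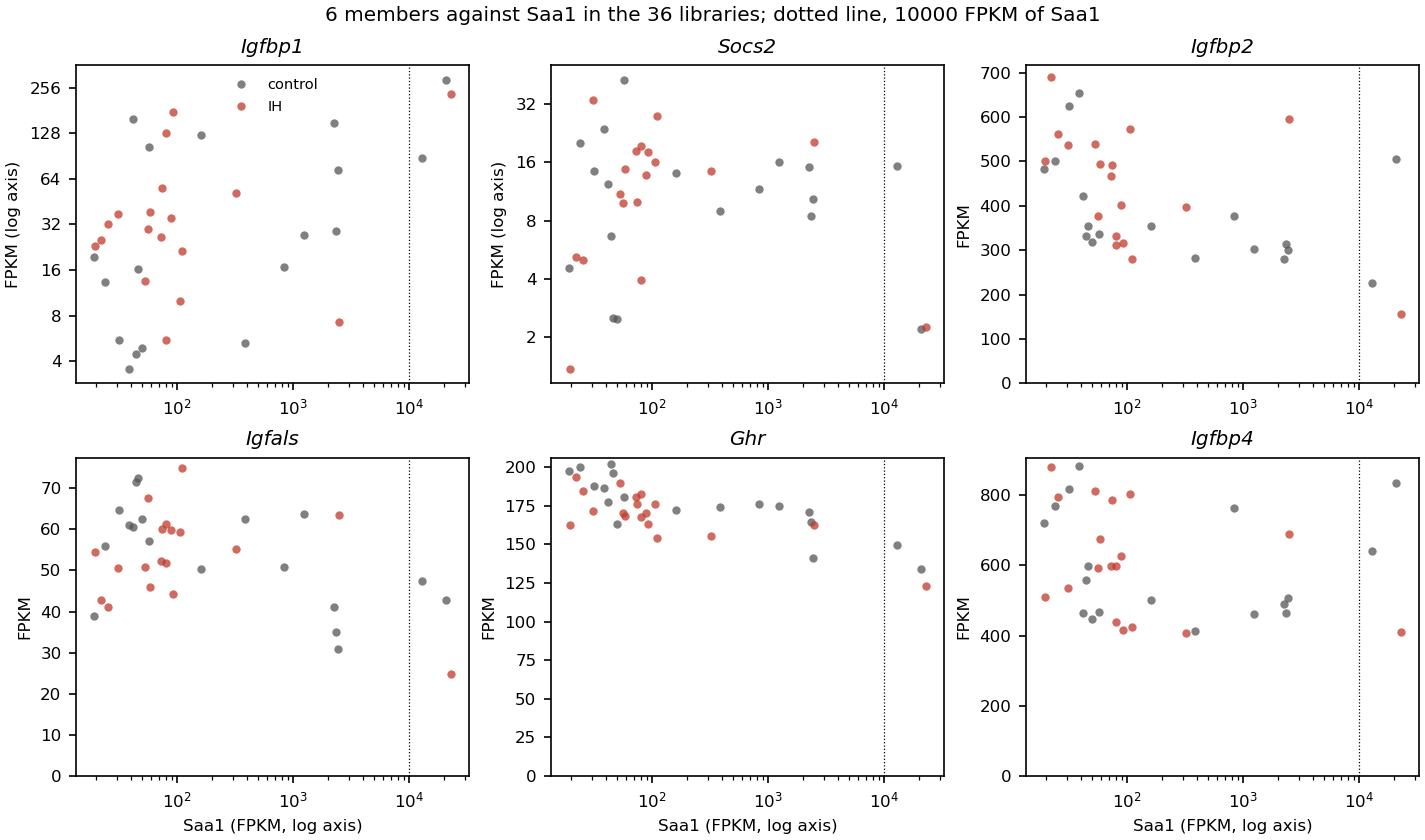
FPKM of 6 members against Saa1 (log axis, FPKM) in each of the 36 libraries, control in grey and IH in red, with log y axes for Igfbp1 and Socs2 and a dotted line at 10000 FPKM of Saa1. The 3 libraries right of the line are low for Ghr (123.2 to 149.7 FPKM) and lie above the Igfbp1 median of 28.1 FPKM (88.3 to 289.8 FPKM). Libraries left of the line also fall in that Igfbp1 range, such as those of control ZT20 (124.6 to 159.0 FPKM).

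The genes whose pattern over the 36 libraries was most like a member were named by Pearson r of log2(FPKM + 1), as a description. For Igfbp1 they were Cdc42ep5 (r = 0.77), Ip6k2 (r = 0.73) and Atg16l2 (r = 0.71), and Irs2 ranked 29 with r = 0.59. Irs2 was most like 2310015A10Rik (r = 0.79), Ank2 (r = 0.78) and Appl1 (r = 0.78). For Igf1 the nearest were Zfp445 (r = 0.81), Rlf (r = 0.76) and Zfp141 (r = 0.75), and for Socs2 they were Mapkapk3 (r = 0.71), D230025D16Rik (r = 0.66) and Kdm5b (r = 0.66). All these points share time of day, condition and the libraries with high Saa1.

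Genes of the wider pathway are counted here beside the shares of all tested genes. Every call at ZT4 and ZT8 together carries the Saa1 limit given above, as no gene passed without the libraries above 500 FPKM of Saa1. Of 23 genes of insulin receptor signalling, 3 were rhythmic in control (Mtor, Shc1 and Foxo1), against 20.1% of all genes, and 13 in IH, against 47.9%. Over the day 0 of the 23 differed between conditions (0.356% of all genes), and at ZT4 and ZT8 together 0 did (7.98%). Mtor, the kinase of a nutrient-sensing complex, peaked at 6.58 h in control (ratio 1.49, adjusted p = 0.0053) and at 6.25 h in IH (ratio 1.41, adjusted p = 4.3e-05). Pik3r1, the regulatory subunit of the kinase recruited by IRS proteins, had a control level of 7.79 ± 2.68 FPKM (SD over 18 mice) and an IH level of 8.55 ± 1.97 FPKM.

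Among 12 genes that restrain the insulin and GH receptors, the rhythm test called 6 in control (20.1% of all genes) and 6 in IH (47.9%), and 2 were higher in IH at ZT4 and ZT8 together (6.05%). Trib3, a pseudokinase that binds AKT, was higher by 0.80 ± 0.16 on the log2 scale (adjusted p = 0.020). Enpp1, a membrane protein that hinders the insulin receptor, was higher by 0.30 ± 0.06 (adjusted p = 0.023). Grb14, an adaptor that blocks the receptor kinase, was rhythmic in both conditions (adjusted p = 0.0049 and 2.0e-04) and differed by 0.18 ± 0.06 at those times (adjusted p = 0.098).

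The 10 genes of GH receptor signalling included 2 that were rhythmic in control, where 20.1% of all genes were, and 7 that were rhythmic in IH, where 47.9% were. Stat3, which also serves cytokine receptors, was lower in IH at ZT4 and ZT8 together (−0.65 ± 0.15, adjusted p = 0.028). This contrast includes the control libraries above 500 FPKM of Saa1, and what part they had in the Stat3 difference was not tested. Stat5b, the main GH-activated factor in male liver, was rhythmic in both conditions with peaks at 0.91 h and 1.33 h (adjusted p = 2.7e-04 and 7.4e-04), and differed by −0.06 ± 0.08 at ZT4 and ZT8.

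Of the other IGF-system genes, 7 of 10 were abundant enough to test, 0 were rhythmic in control (20.1% of all genes), 2 in IH (Igf2r and Igfbp7, against 47.9%) and 1 was higher in IH at ZT4 and ZT8 together (6.05%). That was Igfbp3, the main partner of the complex with Igfals, at 0.29 ± 0.07 (adjusted p = 0.034). The IGF1 receptor gene Igf1r was near the filter, at 0.129 ± 0.0287 FPKM in control and 0.147 ± 0.0271 FPKM in IH.

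Of 5 genes known to be induced by insulin in liver, the rhythm test called 4 in control (20.1% of all genes) and 5 in IH (47.9%). At ZT4 and ZT8 together 2 of the 5 were higher in IH (6.05% of all genes) and over the day 1 was (0.356% in either direction). Fasn, the fatty acid synthase gene, was higher in IH over the day by 0.74 ± 0.13 (adjusted p = 0.0022) and at ZT4 and ZT8 together by 0.72 ± 0.19 (adjusted p = 0.043). Srebf1, the lipogenic transcription factor gene, was higher at ZT4 and ZT8 together by 0.50 ± 0.13 (adjusted p = 0.044).

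Of 7 genes known to be repressed by insulin, 1 was rhythmic in control (20.1% of all genes), 2 were in IH (47.9%) and 1 passed at ZT4 and ZT8 together (7.98%). That was Apoc3, an inhibitor of triglyceride clearance (0.23 ± 0.06, adjusted p = 0.038). G6pc and Pck1, which encode gluconeogenic enzymes, differed over the day by 0.47 ± 0.25 (adjusted p = 0.49) and −0.28 ± 0.23 (adjusted p = 0.66).

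Some liver genes are expressed in a sex-biased way that depends on GH. Of 8 male-predominant ones 1 was rhythmic in control (20.1% of all genes) and 3 were in IH (47.9%), and 0 differed in level over the day (0.356%) or at ZT4 and ZT8 together (7.98%), near what the shares over all genes give for so few. Elovl3, a fatty acid elongase, had the widest daily ratio at 25.7 in control and 23.7 in IH, and Mup20, a urinary protein gene, was at 15160 ± 3520 FPKM in control and 14490 ± 2870 FPKM in IH. Only 3 of 12 female-predominant genes reached the filter in these males. Of these 1, Cyp2a4, was rhythmic in each condition (20.1% of all genes in control and 47.9% in IH). None of the 3 differed in level over the day (0.356%) or at ZT4 and ZT8 together (7.98%), again too few genes to set apart from those shares.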

How the data were processed

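Liver RNA of 36 mice was sequenced as paired, strand-specific poly-A libraries. The values are FPKM per gene that the authors deposited, 1 table per condition with 24883 rows each. According to the submitters' processing notes, reads were handled with TopHat2 (2.1.1) and Cufflinks (2.2.1) on mm10. Both tables use the same column names, so the condition of a column was taken from its table. The 280 symbols that occurred on more than 1 row were left out. Genes averaging at least 0.1 FPKM were kept (13215), and log2(FPKM + 1) was tested with limma (3.58.1, R 4.3.3) with a trended prior, since FPKM are not counts. A fold on this scale understates the change of low genes. Rhythm used 18 libraries of a condition, the condition-by-time term and the single time points all 36, the difference over the day all 36 with time as a factor, and ZT4 with ZT8 only those 12. Calls required a Benjamini-Hochberg adjusted p under 0.05. The rhythm and difference tests (ZT4 for single time points) and JTK_Cycle were tried on simulated data, and the other steps were not. The members and lists were chosen with earlier results of these data known. All 10 members are named. From each list, named genes were taken from those with the 4 smallest P for mean level or rhythm, and those called where 5 or fewer were. Some results for genes of these lists are not reported here. Likeness names the first 3 genes for Igfbp1, Irs2, Igf1 and Socs2. Replicate numbers recur across groups. Same-numbered libraries had residual correlations of −0.18 to 0.29 (mean 0.05), and 6 of 18 pairs exceeded 0.1. Differently numbered libraries were not compared, so these values do not settle whether the numbers pair the samples. The samples were treated as unpaired. Nothing in the labels gives litters or batches. Each library is 1 mouse. Sequences came from RefSeq (GRCm38.p6) and positions from GENCODE M21. Alternatives covered the pseudocount, filter, scaling, weights, block, test and left-out libraries. Depth is unknown, and no counting interval is given.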

Additional observations from a re-analysis of the deposited data

Results flagged for a closer look

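Igfbp4 was flagged because its IH and control mice were separated in opposite directions at different times of day. Its log2 difference was 0.33 at ZT4 and 0.14 at ZT8, with all IH mice above all control mice, and −0.16 at ZT12, with all IH mice below, though it was 0.06 there under quantile normalization. A term for condition by time point, with each time point its own level, gave an adjusted p of 0.17, and the cosine form gave 0.92 (limma), so the difference between times did not pass. Insr was flagged in the same way, at 0.18 at ZT4 (all IH mice above) and −0.15 at ZT20 (all IH mice below). Its adjusted p values were 0.72 and 0.92 for the same terms. How many of all genes were separated in opposite directions was not counted, so neither member is shown to be unusual. At single time points between 10.8% (ZT0) and 34.5% (ZT4) of all genes were separated in either direction.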

How the results depend on the processing

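With 3 mice a group, single time points separate only large or tight differences, and depth is unknown. Of 1370 member results under other settings 40 crossed the threshold, and of 3360 that left out 1 library 44 did. No called direction turned. The cause of each change was not tested. Members called at ZT4 and ZT8 together numbered 2, 3 with array weights (Insr added), 1 without a filter on low values, with median-ratio scaling, common-sum scaling or quantile normalization, or from the fit of 36 libraries, and 0 without the libraries above 500 FPKM of Saa1. With 1 library left out they numbered 1 to 2. Members rhythmic in control numbered 4, 5 with array weights or without the libraries above 10000 FPKM of Saa1 (Igf1 added), 3 with quantile normalization (Igfbp2 lost), 3 without a filter on low values, with an F test over the time points or with JTK_Cycle (Irs1 lost), 2 with common-sum scaling, 2 without the libraries above 500 FPKM of Saa1, and 2 to 4 with 1 library left out. The 2 came without control ZT8 replicate 2, ZT12 replicate 1 or ZT12 replicate 3, where 2225, 2375 and 2119 genes were called. At ZT4 alone the count was 0, with 153 of all 13215 genes called. It was 4 with array weights (Insr, Igf1, Igfbp2 and Igfbp4), where 3253 genes were called. Without the libraries above 10000 FPKM of Saa1 it was 2, where 1344 genes were called. It was 1 from the libraries of ZT4 alone (Igfbp2), where 729 genes were called, and 0 to 1 with 1 library left out. The 1 came without control ZT12 replicate 2, IH ZT4 replicate 1 or IH ZT20 replicate 2 (Igfbp4) or without IH ZT0 replicate 2 (Igfbp2). Over the day the count of 0 became 1 (Ghr) without the libraries above 500 FPKM of Saa1, where 43 genes were called. The other counts of members kept close to the reported ones, rhythm in IH at 4 to 7 throughout. Array weights also raised the count over all genes, from 2652 to 4910 for rhythm in control and from 1054 to 1516 at ZT4 and ZT8 together. At ZT4 and ZT8 together the count was 924 with median-ratio scaling, 741 with common-sum scaling and 953 with quantile normalization. It was 269 from the fit of 36 libraries and 614 of 18677 without a filter. Rhythm in control was called for 2990 genes with quantile normalization, 2308 with common-sum scaling, 2845 with the F test and 2544 with JTK_Cycle. Without a filter it was called for 2442 of 18677. Without the libraries above 10000 FPKM of Saa1, 4143 genes were rhythmic in control, and 2819 were without those above 500 FPKM.

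With the replicate number as a block, 3 members were rhythmic in control (Irs1 was lost, adjusted p = 0.059), 6 in IH, 2 differed at ZT4 and ZT8 together and 0 in the other comparisons. Of all 13215 genes the block called 2290 as rhythmic in control, 6154 in IH and 901 at ZT4 and ZT8 together. It called 140 at ZT4 and 49 over the day. The block moved the count over all genes at ZT12 from 102 to 1. The labels do not say whether the numbers pair the mice, so the Irs1 call in control depended on that choice.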
